A study of Mus musculus with 12 samples.

Results

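Of the 23420 genes listed in the count tables of both mouse lines, 8 genes of cholesterol synthesis and its feedback control are described here: *Hmgcs1*, *Idi1*, *Fdft1*, *Sqle*, *Lss*, *Cyp51*, *Dhcr7* and *Insig1*. They were chosen by name, with earlier results of these data known, and all 8 were found in both tables. RNA was sequenced from homogenized whole mouse embryos at E12.5, 3 libraries in each of 4 groups. For the *Carm1* line, on the C57BL/6 strain, homozygotes for *Carm1* tm1Mtb (*Carm1* KO/KO) were compared with wild-type embryos. For the *Pax3* line, on a mixed background kept as a closed colony, homozygotes for the Splotch allele *Pax3* Sp2H (*Pax3* Sp2H/Sp2H) were compared with wild-type embryos. Embryos of both lines came from intercrosses of heterozygotes, and both alleles are present in every cell of the homozygotes from conception. Whether embryos shared litters is not stated in the sources used here, and each library was treated as a separate sample. Because the lines differ in strain and colony as well as in the mutated gene, a difference in level between the lines cannot be told apart from a difference in strain.

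Cholesterol is built from acetyl-CoA through mevalonate and the isoprenoids to squalene, which is closed into lanosterol and then trimmed to cholesterol. When sterols in the membrane of the endoplasmic reticulum are low, the transcription factor SREBP2 is released and raises the transcription of most enzymes of the pathway, and when sterols are high INSIG proteins hold SREBP2 back. Early mouse embryos depend on maternal cholesterol and on their own synthesis, and defects of the late steps cause malformation syndromes such as Smith-Lemli-Opitz syndrome, which results from loss of *DHCR7*.

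Library totals lay between 17183344 and 23518692 counts, and the 8 genes together took 0.0867% to 0.105% of them. Each of the 8 genes had at least 449 counts in every library, so none was near the filter on low counts. Levels are given as CPM (counts scaled to a common library total) after library sizes were scaled by TMM within each line. The targeted genes followed the labels: *Carm1* lay between 69.3 and 76.2 CPM in *Carm1* KO/KO and between 137 and 151 CPM in wild-type libraries, and *Pax3* between 18.1 and 22.4 CPM in *Pax3* Sp2H/Sp2H and between 25.0 and 30.9 CPM in wild-type libraries. Within the *Carm1* line, *Pax3* was higher in *Carm1* KO/KO (27.4 to 30.4 CPM) than in wild-type libraries (20.5 to 24.2 CPM). Within the *Pax3* line, *Carm1* overlapped between *Pax3* Sp2H/Sp2H (139 to 153 CPM) and wild-type libraries (151 to 159 CPM). Counts on Y-linked genes reached 100 in 1 library of the *Carm1* line (wild-type replicate 3) and in 3 of the *Pax3* line (wild-type replicates 2 and 3, and *Pax3* Sp2H/Sp2H replicate 3).

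Per length of transcript, *Hmgcs1* was the most abundant of the 8. HMGCS1 is the cytosolic HMG-CoA synthase, which joins acetyl-CoA and acetoacetyl-CoA. In wild-type embryos of the *Pax3* line its RNA stood at 121 ± 3.44 RPKM (CPM per kilobase of transcript, scaled by TMM over all 12 libraries, mean ± SD, n = 3), and in those of the *Carm1* line at 108 ± 4.61 RPKM. *Sqle*, squalene epoxidase and a rate-limiting step of the sterol branch, followed with 49.3 ± 1.23 RPKM in the *Pax3* line, then *Cyp51*, the lanosterol 14-alpha-demethylase, with 36.3 ± 0.796 RPKM and *Fdft1*, squalene synthase, with 28.1 ± 0.673 RPKM. *Insig1*, which retains SREBP2 in the endoplasmic reticulum, had 23.6 ± 1.41 RPKM and *Dhcr7*, the last enzyme of one branch to cholesterol, 21.6 ± 1.07 RPKM, and the spreads of these 2 genes met. *Idi1*, isopentenyl diphosphate isomerase, had 14.8 ± 1.48 RPKM. The lowest was *Lss*, lanosterol synthase, with 10.7 ± 0.681 RPKM. Wild-type embryos of the *Carm1* line gave the same order except for *Lss* (10.6 ± 0.496 RPKM) and *Idi1* (10.5 ± 1.39 RPKM), which were not separated there, nor were *Fdft1* (25.1 ± 0.699 RPKM) and *Insig1* (24.2 ± 2.91 RPKM).

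In the *Carm1* line a change between wild-type and *Carm1* KO/KO embryos was shown for none of the 8 genes. The question of this comparison was which RNAs change in embryos that lack the arginine methyltransferase CARM1. With a threshold of 0.05 on *P* values adjusted for the false discovery rate by the Benjamini-Hochberg method, 0 of the 8 genes passed the quasi-likelihood test of edgeR, where 13.3% of the 15811 genes tested did. None of the 8 had an unadjusted *P* below 0.05 either, where 26.4% of the genes tested did. DESeq2 called 0 of the 8 and 7.20% of the 19934 genes to which it gave a *P* value. That set was not cut by the filter on low counts used for edgeR, so 7.20% and 13.3% are shares of unlike sets. In all 8 the 3 *Carm1* KO/KO libraries overlapped the 3 wild-type libraries, whereas the groups did not overlap in 30.0% of all genes tested. The median log2 fold change of the 8 genes, *Carm1* KO/KO over wild type, was 0.0031, beside 0.0014 for all genes tested.

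*Hmgcs1* measured 379, 386 and 367 CPM in *Carm1* KO/KO embryos and 351, 378 and 378 CPM in wild-type embryos. The lowest value was that of wild-type replicate 1, and the other 5 libraries lay within 367 to 386 CPM. Its log2 fold change was 0.03, with a 95% interval from -0.06 to 0.12.

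*Cyp51* showed the highest of the 8 fold changes and *Lss* the lowest, and both were within the replicate spread. *Cyp51* measured 159, 158 and 148 CPM in *Carm1* KO/KO embryos and 138, 152 and 151 CPM in wild-type embryos, a log2 fold change of 0.08 (95% interval -0.02 to 0.17, adjusted *P* = 0.32). *Lss* had 45.2, 47.7 and 46.6 CPM against 50.3, 49.7 and 46.2 CPM, a log2 fold change of -0.07 (95% interval -0.19 to 0.05, adjusted *P* = 0.50).

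*Idi1* and *Insig1* varied more among wild-type embryos of the *Carm1* line than among *Carm1* KO/KO embryos. *Idi1* lay between 26.6 and 34.7 CPM in the wild-type libraries and between 30.3 and 32.3 CPM in the *Carm1* KO/KO libraries, and *Insig1* between 55.7 and 70.4 CPM and between 60.6 and 64.7 CPM. Wild-type replicate 1 was the lowest of the 6 libraries for both. For *Fdft1*, *Sqle* and *Dhcr7* the log2 fold changes were -0.01, 0.0007 and 0.05. Over the 8 genes the 95% intervals reached no lower than -0.19 (*Lss*) and no higher than 0.17 (*Cyp51*), or from -12.1% to 12.6% of the wild-type level.

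**Figure D1:**
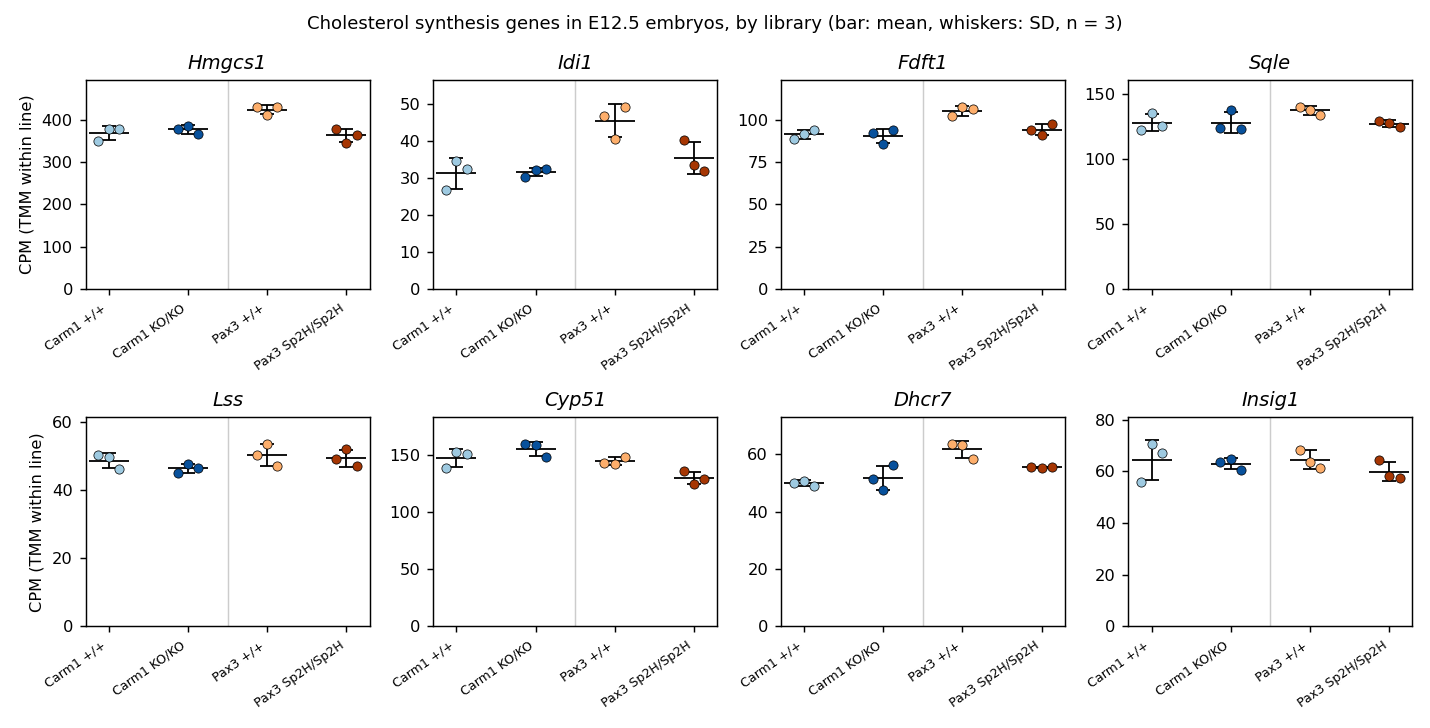
Level of each of the 8 genes in CPM, scaled by TMM within each line (y axis, starting at 0), in the 4 groups (x axis). Points are single libraries, the bar is the mean and whiskers are the SD of 3 libraries. The 2 groups of the *Carm1* line overlap in every panel, whereas in the *Pax3* line the *Pax3* Sp2H/Sp2H libraries lie below all wild-type libraries in 6 panels (all but *Lss* and *Insig1*).

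In the *Pax3* line 4 of the 8 genes were lower in *Pax3* Sp2H/Sp2H than in wild-type embryos, and none was higher. The question here was which RNAs change in embryos without functional PAX3, a transcription factor of neural crest, neural tube and muscle precursors. *Hmgcs1*, *Idi1*, *Fdft1* and *Cyp51* passed the same test, edgeR's with the threshold of 0.05, while 24.5% of the 15724 genes tested passed in either direction and 10.5% passed as lower. The fold changes of all 8 were negative, with a median log2 fold change of -0.16, beside -0.0026 over all genes tested. In 6 of the 8, all but *Lss* and *Insig1*, each *Pax3* Sp2H/Sp2H library lay below each wild-type library, which was the case for 18.9% of all genes tested. Since whole embryos were used, fewer cells that express a gene and less RNA per cell cannot be told apart.

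Of the enzymes of the mevalonate steps, *Idi1* fell most. IDI1 converts isopentenyl diphosphate into its isomer dimethylallyl diphosphate, the starter unit of all longer isoprenoids. *Idi1* had 40.2, 33.6 and 32.0 CPM in the *Pax3* Sp2H/Sp2H libraries and 46.7, 40.4 and 49.1 CPM in the wild-type libraries. The highest mutant library and the lowest wild-type library were only just apart, and the wild-type mean exceeded the mutant mean by more than the SD of either group. The log2 fold change was -0.37 (SE 0.088, adjusted *P* = 0.0035), equal to 0.775 of the wild-type level.

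*Hmgcs1*, which acts at the start of the mevalonate steps, had 378, 346 and 364 CPM in the *Pax3* Sp2H/Sp2H libraries and 430, 411 and 430 CPM in the wild-type libraries. The groups did not overlap, and all mutant values were below the lowest wild-type value. The log2 fold change was -0.22 (SE 0.059, adjusted *P* = 0.0069), equal to 0.857 of the wild-type level.

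*Fdft1* commits farnesyl diphosphate to the sterol branch by joining 2 molecules of it into squalene. It had 94.2, 91.1 and 97.4 CPM in the *Pax3* Sp2H/Sp2H libraries and 102, 108 and 106 CPM in the wild-type libraries, with no overlap. The log2 fold change was -0.16 (SE 0.055, adjusted *P* = 0.036). With Y-linked counts as a term in the fit the adjusted *P* of *Fdft1* was 0.076, so that its call was lost, as under 6 other alternatives. Its log2 fold change lay between -0.19 and -0.13 under all 14.

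*Cyp51* removes the 14-alpha-methyl group of lanosterol, the first step after ring closure. It had 135, 125 and 129 CPM in the *Pax3* Sp2H/Sp2H libraries and 143, 142 and 148 CPM in the wild-type libraries, again without overlap. The log2 fold change was -0.16 (SE 0.054, adjusted *P* = 0.033).

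The other 4 genes did not pass the test. *Dhcr7* had 55.5, 55.3 and 55.4 CPM in the *Pax3* Sp2H/Sp2H libraries, which were almost identical, and 63.4, 63.3 and 58.2 CPM in the wild-type libraries, a log2 fold change of -0.15 (95% interval -0.28 to -0.03, adjusted *P* = 0.062). *Sqle* had 130, 128 and 125 CPM against 140, 138 and 134 CPM, a log2 fold change of -0.11 (95% interval -0.22 to -0.0011, adjusted *P* = 0.13). Both were without overlap between the groups and had 95% intervals below 0, and neither passed after adjustment over all genes. *Dhcr7* passed under 2 of 14 alternatives, one fit of all 12 libraries and the fit without wild-type replicate 3, with adjusted *P* values down to 0.037.

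*Insig1* had 64.2, 58.3 and 57.3 CPM in the *Pax3* Sp2H/Sp2H libraries and 68.4, 63.6 and 61.3 CPM in the wild-type libraries. Its groups overlapped, and the log2 fold change was -0.10 (95% interval -0.23 to 0.02, adjusted *P* = 0.24). *Lss* had 49.2, 52.1 and 47.0 CPM against 50.5, 53.5 and 47.0 CPM. Here the groups covered the same range, and the log2 fold change was -0.02 (95% interval -0.17 to 0.12, adjusted *P* = 0.84).

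The calls in the *Pax3* line depended on single libraries. Without *Pax3* Sp2H/Sp2H replicate 2 only *Idi1* passed the test, without *Pax3* Sp2H/Sp2H replicate 3 *Hmgcs1* and *Idi1* passed, and without any other single library 3 or 4 genes did. *Idi1* kept its call under each of the 14 alternatives in processing, with adjusted *P* values from 0.00029 to 0.031, whereas *Hmgcs1* lost it under 2, *Cyp51* under 4 and *Fdft1* under 7.

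**Figure D2:**
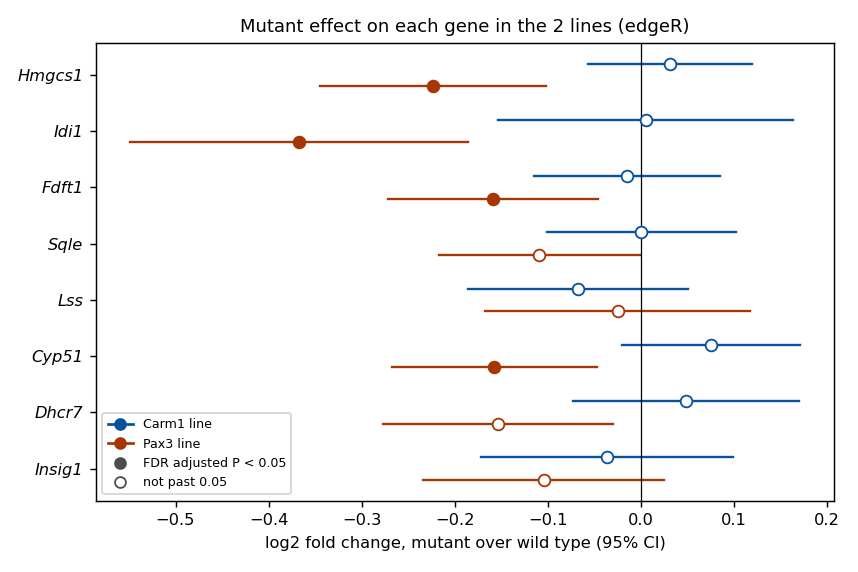
Log2 fold change of mutant over wild-type embryos (x axis) for each of the 8 genes (y axis) in the *Carm1* line (blue) and the *Pax3* line (red), from edgeR, with bars for the 95% interval. Filled points passed an adjusted *P* of 0.05, which in this plot are *Hmgcs1*, *Idi1*, *Fdft1* and *Cyp51* in the *Pax3* line.

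GC content and length of the transcripts moved with the fold change across all genes of the *Pax3* line. All genes tested were divided by GC content into 5 bins of like size. Among genes of the bin with the lowest GC content (29.6% to 44.6%) the median log2 fold change was -0.12 and 20.7% were called lower, whereas in the bin with the highest GC content the median was 0.17 and 1.76% were called lower. With bins by length, the median went from 0.20 for the shortest transcripts to -0.11 for the longest. The medians of the GC bins of the *Carm1* line lay between -0.0074 and 0.0089.

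*Idi1* (41.9% GC) and *Hmgcs1* (43.1% GC), the 2 genes with the lowest GC content of the 8, had the most negative fold changes in the *Pax3* line. *Cyp51* (46.2%) and *Insig1* (48.2%) lay in the next bin, *Sqle* (49.4%), *Fdft1* (51.8%) and *Lss* (52.2%) in the middle bin and *Dhcr7* (52.8%) in the bin above it. With offsets for length and GC content in the fit, only *Idi1* passed in the *Pax3* line, with a log2 fold change of -0.26 (adjusted *P* = 0.022). *Hmgcs1* then had -0.13 (adjusted *P* = 0.052), *Fdft1* -0.13 (0.056), *Dhcr7* -0.15 (0.055), *Cyp51* -0.08 (0.25) and *Lss* 0.02 (0.90). *Sqle* and *Insig1* were uncalled under all 14 alternatives, these offsets among them. Their log2 fold changes ranged from -0.12 to -0.061 and from -0.16 to -0.049. The part of GC content and length in these differences was not tested beyond this fit.

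**Figure D3:**
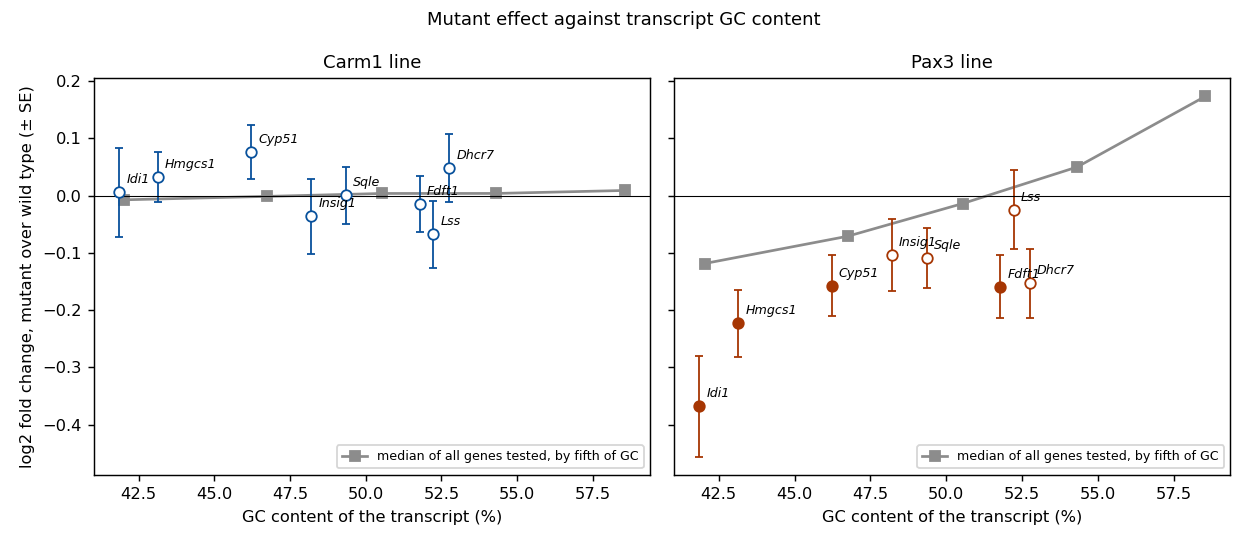
Log2 fold change of mutant over wild type (y axis, bars are standard errors) against GC content of the transcript in percent (x axis) for the 8 genes in the *Carm1* line (left) and the *Pax3* line (right). Filled points passed an adjusted *P* of 0.05, and grey squares are medians of all genes tested in 5 bins of GC content, which go from -0.12 to 0.17 in the *Pax3* line and stay within 0.01 of 0 in the *Carm1* line.

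The mutant effect differed between the lines for 3 of the 8 genes. The difference was taken as the log2 fold change in the *Carm1* line minus that in the *Pax3* line, in one fit of all 12 libraries, so that a positive value means a lower fold change in the *Pax3* line. *Hmgcs1* (0.27, SE 0.069, adjusted *P* = 0.0060), *Cyp51* (0.24, SE 0.071, adjusted *P* = 0.014) and *Idi1* (0.39, SE 0.13, adjusted *P* = 0.041) passed edgeR's test, where 19.1% of 16292 genes did in either direction and 8.65% did with this sign. *Hmgcs1* and *Cyp51* passed under all 19 alternatives in processing, while *Idi1* lost its call under 10 of them, with adjusted *P* values up to 0.11.

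For the other 5 genes no difference between the lines was shown. *Dhcr7* had 0.21 (95% interval 0.04 to 0.39, adjusted *P* = 0.076), and passed without *Carm1* KO/KO replicate 2 or without *Pax3* line wild-type replicate 3 (adjusted *P* down to 0.036). *Fdft1* had 0.15 (95% interval 0.0083 to 0.30, adjusted *P* = 0.13) and passed under none of the 19 alternatives. *Sqle* had 0.12, *Insig1* 0.08 and *Lss* -0.03, with 95% intervals that included 0. *Fdft1*, called in the *Pax3* line and not in the *Carm1* line, is thus not shown to respond differently in the lines.

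Placed side by side after scaling over all 12 libraries, wild-type embryos of the *Pax3* line held the highest mean of the 4 groups for 6 of the 8 genes. For *Hmgcs1*, *Idi1*, *Fdft1* and *Dhcr7* they did not overlap the group next in order, and for *Sqle* and *Lss* they did. For *Cyp51* the order was *Carm1* KO/KO, *Carm1* line wild type, *Pax3* line wild type and *Pax3* Sp2H/Sp2H, and only the last 2 did not overlap. For *Insig1* all neighbours in the order overlapped. Summed over the 8 genes and scaled within each line, the *Pax3* Sp2H/Sp2H libraries (889 to 947 CPM) lay within the range of *Carm1* line wild-type libraries (883 to 962 CPM) and overlapped that of *Carm1* KO/KO libraries (927 to 960 CPM), and the wild-type libraries of the *Pax3* line (1020 to 1044 CPM) lay above all of these. These levels were not tested between the lines.

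The promoter sequence of *Hmgcs1* is shown as that of a called gene. That of *Lss* is shown because its groups covered the same range in the *Pax3* line. Short stretches of *Idi1* and *Cyp51* are shown because both were called. SREBP2 binds sterol regulatory elements together with NF-Y, which binds CCAAT boxes. RefSeq windows (GRCm38.p6, 250 bases before to 50 after each start) were at hand for 6 of the 8 genes, *Hmgcs1*, *Idi1*, *Lss*, *Cyp51*, *Dhcr7* and *Insig1*, and not for *Sqle* and *Fdft1*. Capitals mark TCACNCCAC, a form of the sterol regulatory element, and CCAAT, each searched on both strands (CCAAT on the other strand reads ATTGG). The stretches end before the start of the gene in GENCODE where they are longer than 25 bases, and run 5′ to 3′ on the strand of the gene.
*Hmgcs1*, chr13:119690151-119690350, + strand: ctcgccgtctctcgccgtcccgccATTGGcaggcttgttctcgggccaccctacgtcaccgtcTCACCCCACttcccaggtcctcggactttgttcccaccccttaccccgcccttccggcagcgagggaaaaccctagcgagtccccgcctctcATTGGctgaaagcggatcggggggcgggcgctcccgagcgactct
*Lss*, chr10:76531405-76531587, + strand: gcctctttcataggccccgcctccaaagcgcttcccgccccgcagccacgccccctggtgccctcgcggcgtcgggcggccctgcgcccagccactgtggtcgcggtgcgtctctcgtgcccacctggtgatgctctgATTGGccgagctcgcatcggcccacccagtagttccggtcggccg
*Idi1*, chr13:8885551-8885575, + strand: cctccagctgATTGGcgagcccggg
*Idi1*, chr13:8885582-8885606, + strand: ccaaggtgccATTGGctggcgaccg
*Cyp51*, chr5:4104712-4104736, - strand: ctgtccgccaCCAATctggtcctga

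TCACNCCAC was found in the window of *Hmgcs1* alone of the 6 genes, at base -137 from the RefSeq start, while 1.44% of all 27025 genes with a window held it in at least 1 window. Other spellings of the sterol regulatory element were not searched, so the other windows are not shown to lack the element. CCAAT was found in at least 1 window of each of the 6 genes and of 41.1% of all genes, and GGGCGG, the core of the GC box bound by Sp1, in at least 1 window of each of the 6 and of 38.2% of all genes. One of the 2 windows of *Dhcr7* held no CCAAT. Both motifs were thus found for the called genes *Hmgcs1*, *Idi1* and *Cyp51* and for *Lss*, *Dhcr7* and *Insig1* alike. The called gene *Fdft1* had no window and was not searched. A match of letters is a description of the window, and binding was not measured here.

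The remaining enzymes of the pathway were read from lists of 7 mevalonate and 12 squalene and sterol steps, 7 of which are among the 8 genes. None (0) of the 19 enzymes passed the test in the *Carm1* line, with a median log2 fold change of 0.0077. Of the same enzymes 5 were lower and 1 was higher in the *Pax3* line, with a median of -0.11. Over all genes tested, 13.3% were called in the *Carm1* line and 24.5% in the *Pax3* line in either direction. In the *Pax3* line 10.5% were called lower. These shares apply as well to the counts of the lists and markers below. Among the 12 enzymes outside the 8 genes, 1 was lower and 1 was higher in the *Pax3* line, and their median was 0.03. The negative median of the 8 genes in the *Pax3* line was thus not seen over the other enzymes.

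*Msmo1*, the sterol-C4-methyl oxidase that acts after CYP51 and is listed in the tables under its older symbol *Sc4mol*, was lower in the *Pax3* line, with a log2 fold change of -0.26 (adjusted *P* = 0.0041). *Pmvk*, phosphomevalonate kinase, went the other way: it rose from 22.2, 23.6 and 24.7 CPM in the wild-type libraries to 34.6, 30.4 and 32.9 CPM in the *Pax3* Sp2H/Sp2H libraries, a log2 fold change of 0.47 (adjusted *P* = 1.3e-04), and with the length and GC offsets it had 0.18 (adjusted *P* = 0.12). *Msmo1* was still called with these offsets (-0.24, adjusted *P* = 0.0031). The mutant effect on *Msmo1* differed between the lines by 0.27 (adjusted *P* = 0.023).

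**Figure D4:**
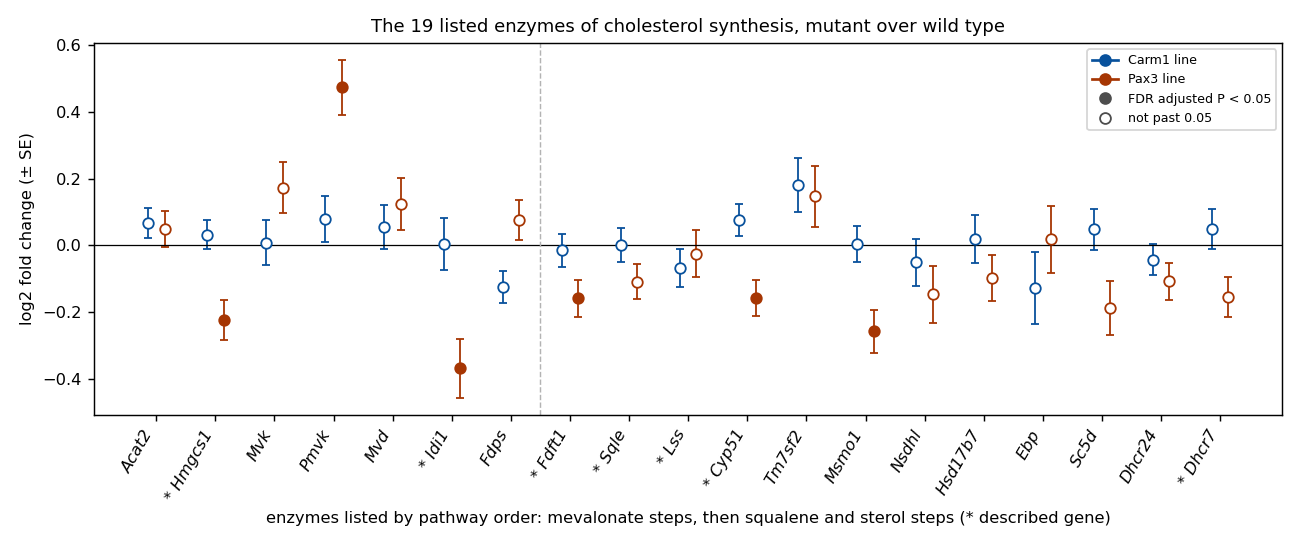
Log2 fold change of mutant over wild type (y axis, bars are standard errors) for the 19 listed enzymes from acetyl-CoA to cholesterol in pathway order (x axis), in the *Carm1* line (blue) and the *Pax3* line (red). Filled points passed an adjusted *P* of 0.05, asterisks mark the 7 described enzymes, and the dashed line divides the mevalonate from the squalene and sterol steps. Filled points are seen in the *Pax3* line only, 5 of them below 0 and *Pmvk* above 0.

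Of the 7 genes for SREBP processing and control, *Insig1* among them, 0 passed the test in either line. *Srebf2*, which encodes SREBP2, had 291, 281 and 272 CPM in the *Pax3* Sp2H/Sp2H libraries and 308, 321 and 296 CPM in the wild-type libraries, with no overlap, and a log2 fold change of -0.13 (adjusted *P* = 0.086). It passed in one fit of all 12 libraries and with the length and GC offsets, where the log2 fold change was -0.20 (adjusted *P* = 0.0027). Its log2 fold change in the *Carm1* line was -0.02 (adjusted *P* = 0.85). *Insig2*, the homologue of *Insig1*, had log2 fold changes of -0.06 in the *Carm1* line and 0.09 in the *Pax3* line.

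Of 6 genes of sterol uptake and transport 1 was called in the *Carm1* line and 2 in the *Pax3* line, beside 13.3% and 24.5% of all genes tested. *Mylip*, a ubiquitin ligase induced through LXR, fell in the *Carm1* line (-0.21, adjusted *P* = 0.032), and in the *Pax3* line *Lipa*, the lysosomal acid lipase, fell (-0.24, adjusted *P* = 0.026) and *Npc2*, a lysosomal sterol carrier, rose (0.24, adjusted *P* = 0.0042). *Mylip* lost its call under 7 of 14 alternatives (adjusted *P* up to 0.18) and *Lipa* under 4 (up to 0.14), and *Npc2* under none.

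Of 10 genes of sterol efflux and esterification, 2 were lower in *Carm1* KO/KO embryos, *Abca1*, the transporter that loads cholesterol onto apolipoprotein A-I (log2 fold change -0.27, adjusted *P* = 0.00032), and *Lcat*, the cholesterol acyltransferase of plasma (-0.52, adjusted *P* = 0.013). In the *Pax3* line *Soat1*, which esterifies cholesterol within the cell, was lower (-0.19, adjusted *P* = 0.036), and *Nr1h2*, which encodes an LXR, and *Apoe* were higher (0.27 and 0.36). With the length and GC offsets *Soat1*, *Nr1h2* and *Apoe* were no longer called. *Lcat* lost its call under 2 of 14 alternatives and *Soat1* under 6.

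Fatty acid synthesis shares its regulators with cholesterol synthesis. Of 10 genes of this list 4 were lower in the *Pax3* line, *Scd1* (log2 fold change -0.37, adjusted *P* = 0.0018), *Acaca* (-0.27, 0.0013), *Scd2* (-0.23, 0.014) and *Elovl6* (-0.19, 0.014), and *Scd1* and *Acaca* passed under all 14 alternatives. *Elovl6* lost its call under 2, with -0.062 (adjusted *P* = 0.45) with the length and GC offsets, and *Scd2* under 3, with adjusted *P* values up to 0.090. *Scd1* and *Scd2* are stearoyl-CoA desaturases, and *Acaca* encodes the acetyl-CoA carboxylase that commits acetyl-CoA to fatty acids. *Acly* and *Fads2* were higher in the *Carm1* line (both 0.14) and *Scd1* was lower (-0.26, adjusted *P* = 0.0044), calls that were lost under 8, 6 and 2 of 14 alternatives. By edgeR's test of the difference between the lines 5 of these 10 genes were called, all positive, beside 8.65% of all genes tested with this sign. *Acaca* (adjusted *P* = 0.10) and *Elovl6* (0.059) did not pass it and are not shown to respond differently in the lines. Of the 7 genes of non-sterol isoprenoid branches 1 was called, *Coq2* of ubiquinone synthesis, higher in the *Pax3* line (0.25), and no longer called with the length and GC offsets (0.12, adjusted *P* = 0.20). Of 5 oxysterol and bile acid enzymes, 4 were tested, and *Cyp27a1*, sterol 27-hydroxylase, was higher in both lines (0.83 in the *Carm1* and 0.46 in the *Pax3* line), at levels of 3.07 to 7.46 CPM, and *Cyp46a1*, the brain 24-hydroxylase, was higher in the *Pax3* line (0.36). The *Pax3* line calls of *Cyp27a1* and *Cyp46a1* were lost under 8 and 9 of 14 alternatives, whereas *Cyp27a1* passed under all 14 in the *Carm1* line.

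Markers of cell types that whole embryos hold were read beside these values. The summed level of 8 hepatocyte markers, all detected in every group, was 1594 to 1918 CPM in wild-type and 881 to 1052 CPM in *Carm1* KO/KO libraries, with 7 of 8 called lower. The sum in the *Pax3* line was 1197 to 1457 CPM in wild-type and 1022 to 1119 CPM in *Pax3* Sp2H/Sp2H libraries, with 2 of 8 called lower and 1 higher. Neuron markers were called lower for 2 of 6 in each line. In the *Pax3* line they summed to 1162 to 1264 CPM in wild-type and 1055 to 1136 CPM in *Pax3* Sp2H/Sp2H libraries. Their sum in the *Carm1* line was 1138 to 1226 CPM in wild-type and 1074 to 1120 CPM in *Carm1* KO/KO libraries. Neural progenitor markers were higher, 6 of 6 in the *Carm1* line and 4 of 6 in the *Pax3* line. Of 5 tested muscle markers 4 were lower in each line. All 6 listed muscle markers summed to 236 to 295 CPM in wild-type and 127 to 142 CPM in *Pax3* Sp2H/Sp2H libraries. This sum in the *Carm1* line was 403 to 469 CPM in wild-type and 303 to 308 CPM in *Carm1* KO/KO libraries. Of 6 erythroid markers 4 were lower in the *Carm1* line and 0 in the *Pax3* line. *Hba-x* went the other way in the *Carm1* line (1.10, adjusted *P* = 0.077 by edgeR). It was not called, though each *Carm1* KO/KO library lay above each wild-type library. The 6 erythroid markers summed to 5146 to 9100 CPM in wild-type and 7027 to 8360 CPM in *Carm1* KO/KO libraries, which overlap. None of the 3 tested markers of steroidogenic cells was called in either line. The part of these cell types in the values of the 8 genes was not tested.

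The 8 genes did not vary as one block among embryos of the same group. After the mean of each group was taken from each gene, the 28 pairs of the 8 genes had a median Pearson correlation of 0.12 over the 12 libraries, from -0.53 (*Hmgcs1* and *Lss*) to 0.92 (*Hmgcs1* and *Cyp51*). *Insig1* followed the mean of the other 7 most closely (*r* = 0.91), then *Idi1* (0.66), *Hmgcs1* (0.63), *Cyp51* (0.59) and *Sqle* (0.46). *Fdft1* (-0.07), *Dhcr7* (-0.12) and *Lss* (-0.29) were not positively correlated with it. Which gene spread most among embryos differed between the groups: it was *Idi1* in 3 of the 4 and *Dhcr7* in *Carm1* KO/KO embryos. *Carm1* line wild-type replicate 1 was low for *Idi1* and *Insig1*, at -0.22 and -0.20 on the log2 scale from the mean of its group, and *Pax3* Sp2H/Sp2H replicate 1 was high for both, at 0.20 and 0.10. These correlations describe 12 libraries that share the scaling of their counts.

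**Figure D5:**
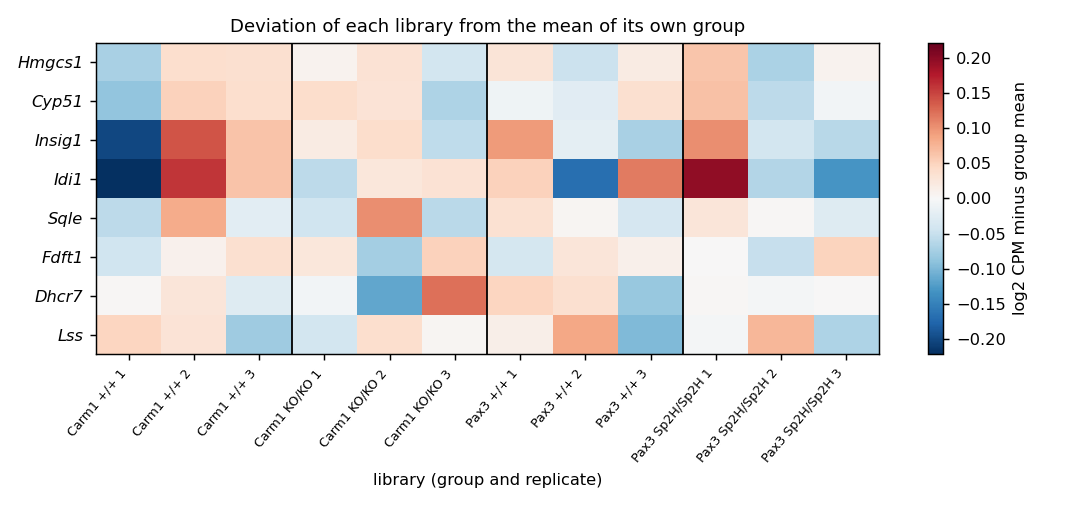
Deviation of each library (columns, by group and replicate) from the mean of its own group in log2 CPM (colour) for the 8 genes (from top to bottom). The strongest colours are those of *Idi1* and *Insig1* in *Carm1* line wild-type replicate 1, which is the lowest library for both, and of *Idi1* in *Pax3* Sp2H/Sp2H replicate 1, which is the highest for that gene.

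The gene most like the 8 genes over the 12 libraries was *Cpsf2*, a subunit of the pre-mRNA cleavage and polyadenylation machinery. For 12299 genes that averaged 5 CPM or more, log2 CPM centred within each line was correlated with the mean of the 8 genes. *Cpsf2* had *r* = 0.98, followed by *Vkorc1l1*, *Tex10*, *Naa35*, *Uba6*, *Reep3*, *Tab3*, *Herc4*, *Yy2* and *Psmd1*, all at 0.93 or above. The first listed pathway gene outside the 8 genes in this order was *Elovl6* at rank 22 (*r* = 0.92). Values centred within each line still hold the difference between mutant and wild-type embryos, so this ranking favours genes that are lower in the *Pax3* line. Of the 10 named genes 9, all but *Herc4*, were called lower there, beside 10.5% of all genes tested. That count follows in large part from how the genes were picked and is no separate result. With values centred within line and genotype only *Cpsf2* of the 10 was again among the first 10 (*r* = 0.93).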

How the data were processed

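Polyadenylated RNA of 12 whole embryos was sequenced in paired reads. The deposited values are counts of reads without normalization, which the authors made by aligning reads to mm10 with STAR and counting reads on exons with featureCounts. The submitters' processing notes and the methods give no versions, and the strand setting and the treatment of multi-mapping reads are not given in the sources used here. Groups and replicate numbers came from the sample labels. Both count tables list 23420 symbols, of which 21777 matched GENCODE vM21 (GRCm38) as written and 1278 by an older symbol, for transcript length and GC content. No column of another series was used.

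Each line was tested alone with edgeR (version 4.0.16, R 4.3.3), with TMM factors, filterByExpr, robust quasi-likelihood fits and Benjamini-Hochberg adjustment over all genes tested (threshold 0.05). The difference between the lines was a contrast in one fit of all 12 libraries, with 1 term for each of the 4 groups. DESeq2 (version 1.42.0), which the study used, was an alternative, as were RLE factors, other filters, one joint fit, the replicate number as a block, a term for Y-linked counts (at least 100), offsets for length and GC content (splines with 5 degrees of freedom), and leaving out each library. The scripts were tested on simulated data. Log2 CPM for likeness used a prior count of 2. Exact permutation tests of 3 against 3 libraries cannot go below *P* = 0.1, so no single-gene permutation test was used. *P* values set the difference between groups against the spread between embryos of a group, which the fit moderates over all genes tested.

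The genes named are the 8 genes, pathway genes past the threshold in either line, *Srebf2* and *Insig2* in any case, the 10 most alike genes and the targeted genes. The 8 genes and all lists were chosen with earlier results of these data known. Some genes of the pathway are not reported here and are left out of the lists and their counts.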

Additional observations from a re-analysis of the deposited data

Results flagged for a closer look

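The mutant effect differed between the *Carm1* and the *Pax3* line by edgeR's test of the difference itself for 3 of the 8 genes. The log2 fold change in the *Carm1* line minus that in the *Pax3* line was 0.27 for *Hmgcs1* (FDR adjusted *P* = 0.0060), 0.39 for *Idi1* (FDR adjusted *P* = 0.041) and 0.24 for *Cyp51* (FDR adjusted *P* = 0.014). Of all 16292 genes tested, 19.1% passed in either direction and 8.65% with this sign. The call of *Idi1* was lost under 10 of the 19 alternatives in processing. All 3 genes had lower levels in every *Pax3* Sp2H/Sp2H library than in every wild-type library of that line and overlapping groups in the *Carm1* line. Over all genes tested, mutant libraries all lay below wild type in 18.9% in the *Pax3* line. The groups of the *Carm1* line did not overlap in 30.0%. The lines differ in strain and colony, which cannot be told apart from the mutated gene in this difference.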

How the results depend on the processing

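No alternative called any of the 8 genes in the *Carm1* line, and in the test of the difference between the lines 2 or 3 of them were called under each alternative, against 3. In the *Pax3* line 4 were called, or 5 in one fit of all 12 libraries, 3 with the Y-linked term and 1 with length and GC offsets, and between 1 and 4 when 1 library was left out. Over all genes tested, 2106 calls in the *Carm1* line (868 higher, 1238 lower) became 3149 (1793 higher, 1356 lower) with the offsets and between 1224 and 2290 when 1 library was left out (1224 without *Carm1* KO/KO replicate 1, 1381 without replicate 2, and 1349 without wild-type replicate 2). Calls in the *Pax3* line went from 3851 to 2447 with the offsets and to between 2454 and 4103 when 1 library was left out (2565 without *Pax3* Sp2H/Sp2H replicate 1 and 2454 without replicate 3). The causes of these shifts were not tested. With the replicate number as a block, 1787 genes were called in the *Carm1* line, 4177 in the *Pax3* line and 3094 for the difference, with 0, 4 and 3 of the 8 genes. No clear pairing of samples by replicate number was seen. Deviations of same-numbered mutant and wild-type libraries from their group means correlated at -0.062, -0.00065 and -0.053 in the *Carm1* line and at 0.19, -0.080 and 0.27 in the *Pax3* line. Not every library correlated best with its own number. With 3 libraries in each group this check cannot exclude a pairing. Log2 fold changes that changed sign were uncalled under these alternatives. They were, in the *Carm1* line, *Sqle* (-0.0014) and *Elovl6* (-0.00096) with at least 10 counts in every library, *Fdft1* (0.0031), *Sqle* (-0.012) and *Apoe* (0.073) with the Y-linked term, and *Fdft1* (0.00060), *Lipa* (0.013) and *Srebf2* (0.0018) with the offsets. They were, in the *Pax3* line, *Lss* (0.017) and *Abca1* (0.067) with the offsets, and *Mylip* with DESeq2 (-0.00077), RLE factors (-0.0023) and one fit of all libraries (-0.0076). When 1 library was left out, the values that changed sign in the *Carm1* line ranged from -0.0025 to 0.052 for *Hmgcs1*, -0.090 to 0.091 for *Idi1*, -0.040 to 0.022 for *Fdft1*, -0.053 to 0.045 for *Sqle*, -0.013 to 0.11 for *Dhcr7*, -0.12 to 0.038 for *Insig1*, -0.045 to 0.0058 for *Srebf2*, -0.14 to 0.014 for *Insig2*, -0.021 to 0.045 for *Msmo1*, -0.011 to 0.030 for *Soat1*, -0.075 to 0.073 for *Apoe*, -0.046 to 0.041 for *Elovl6* and -0.052 to 0.078 for *Lipa*. Those of the *Pax3* line ranged from -0.068 to 0.026 for *Lss* and -0.042 to 0.037 for *Mylip*, and those of the difference between the lines from -0.0098 to 0.15 for *Insig1* and -0.076 to 0.015 for *Lss*. The exact form of the sterol regulatory element, TCACCCCAC, was found in the same single window.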
